A study of Mus musculus with 2 samples.

Results

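The 51 genes described here encode subunits of chromatin complexes that have been linked to Ikaros, the zinc finger transcription factor encoded by Ikzf1. They were taken as a list of mouse symbols, drawn up with earlier results of these data known although its rule names no measured value, and each symbol was matched to its Entrez identifier. All 51 were among the 27179 genes of the count table. By complex, 13 belong to NuRD, 5 to the Sin3 and CtBP corepressors, 8 to Polycomb repressive complex 2 (PRC2), 11 to Polycomb repressive complex 1 (PRC1), 2 are demethylases that remove the PRC2 mark, and 12 belong to SWI/SNF.

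NuRD joins a nucleosome remodelling ATPase to histone deacetylases in 1 complex, and in lymphocytes a large share of Ikaros protein is found bound to it. PRC2 methylates histone H3 at the lysine known as K27, a mark of repressed genes, and PRC1 ubiquitinates histone H2A at many of the same loci. SWI/SNF complexes use ATP to move or evict nucleosomes and often oppose Polycomb repression. Loss of PRC2 core genes and of the demethylase gene KDM6A is known from human T-cell acute lymphoblastic leukemia (T-ALL).

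RNA sequencing was carried out on ALL211, 1 primary mouse T-ALL that carries Vav-tTA and TRE-GFP-shIkaros, so that a tetracycline-controlled transactivator expressed from a Vav promoter, active in blood cells, drives GFP and a hairpin against Ikaros. The Dox library (n = 1) came from GFP-mid cells of leukemic recipient mice given doxycycline (Dox) for 3 days, which shuts off hairpin and GFP and lets endogenous Ikaros return. The untreated library (n = 1) came from GFP-high cells of recipients without Dox. Both were sorted from spleen and carry the same transgenes. The labels list 1 sample for each condition although the design text speaks of 2 mice, and the sources used here do not say whether their RNA was pooled. Cells without the hairpin under Dox were not analysed here. Treatment, sorting gate and mice differed together between the libraries and cannot be told apart, and with 1 library per condition differences below have no replicate check, so p-values are left out.

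The Dox library held 16484613 counts and the untreated library 16960042. Ikzf1, the targeted gene, was at 1229 counts per 1000000 (CPM, after TMM scaling of the library sizes) in the Dox library and 120.5 CPM in the untreated library, from 20131 counts with Dox and 2057 untreated, 10.2-fold higher with Dox. All 16 T-lineage markers examined, among them Cd3e, Cd4 and Cd8a, exceeded 1 CPM in both libraries. Their levels were not alike: 14 were higher and 2 lower with Dox, with a median log2 fold (Dox over untreated) of 0.52. Of 63 markers of other cell types, 40 reached 1 CPM in the Dox library and 18 in the untreated library. These markers summed to 1756 CPM in the Dox library and 747 CPM in the untreated library. The immunoglobulin heavy chain gene Ighm alone had 948 CPM with Dox and 346 CPM untreated, and the rest 808 CPM with Dox and 400.2 CPM untreated. Macrophage markers summed to 181 CPM in the Dox and 14.5 CPM in the untreated library, and the dendritic cell gene Clec9a had 129 counts with Dox and 0 untreated. Their part in the differences below was not tested. All intervals below are 95% counting intervals; they treat reads as independent and hold no variation between mice.

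Most of the chromatin complex genes differed little between the libraries. Of the 50 members with at least 1 CPM, all of which exceeded 5 CPM in both libraries, 0 were at least 2-fold higher with Dox, where 13.6% of the 12125 genes tested were, and 3 were at least 2-fold lower, where 13.0% of all genes were. At a smaller fold of 1.5, 3 members were higher (23.6% of all genes) and 9 were lower (24.1% of all genes). The 12 members beyond 1.5-fold in either direction are 24.0% of those measured, against 47.7% of all genes and 44.0% of the 10233 genes with at least 5 CPM in either library. The median log2 fold (Dox over untreated) of the members was -0.02 and that of all genes -0.01. The median size of the log2 fold, regardless of sign, was 0.38 for the members and 0.55 for all genes. In bulk libraries fewer cells of a type and less RNA per cell cannot be told apart.

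**Figure D1:**
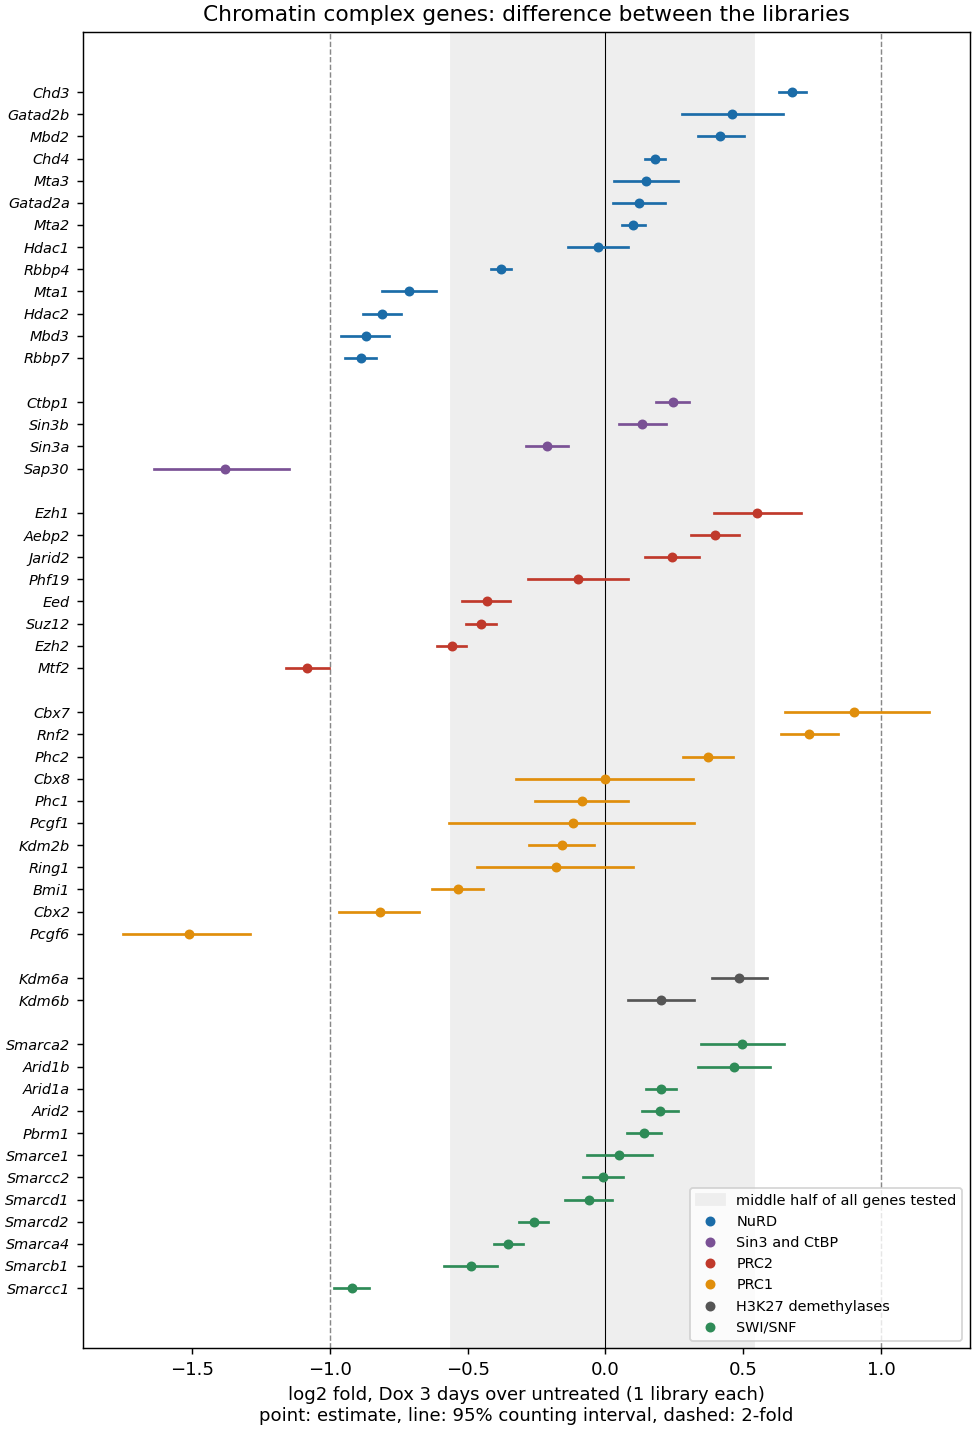
Log2 fold of the 50 measured members, Dox 3 days over untreated, by complex (vertical axis: gene; horizontal axis: log2 fold). Points are estimates from 1 library each, lines 95% counting intervals, dashed lines 2-fold, and the grey band the interquartile range of all genes tested; Pcgf6, Sap30 and Mtf2 lie beyond 2-fold lower and no member lies beyond 2-fold higher.

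The complexes differed in how their members were placed. NuRD had a median log2 fold of 0.10, SWI/SNF of 0.02, the measured Sin3 and CtBP genes of -0.04, PRC1 of -0.12 and PRC2 of -0.27, while both demethylases were above 0 with a median of 0.34. With a trend of log2 fold with gene length removed, the SWI/SNF median was -0.079, and with Ctbp2 admitted by a filter of 1 count the Sin3 and CtBP median was 0.13. Summed per length, in CPM per kilobase of gene length (RPKM), PRC2 genes were at 313 RPKM in the Dox library and 423 RPKM in the untreated library. NuRD genes summed to 1007 RPKM with Dox and 1182 RPKM untreated, SWI/SNF genes to 464 RPKM with Dox and 535 RPKM untreated, and PRC1 genes to 162 RPKM with Dox and 170.0 RPKM untreated. Of the NuRD sum, Rbbp4 and Rbbp7, which NuRD shares with other complexes, made up 248 RPKM with Dox and 381 RPKM untreated. They are not in the PRC2 sum. Within each complex with more than 2 measured genes, some members were higher with Dox and others lower.

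Among the enzymes of NuRD, the remodelling ATPase genes had log2 folds above 0 before removal of the length trend, and 1 deacetylase gene was lower with Dox. Chd3 (Entrez 216848, GRCm38 chr11:69343273-69369499), which encodes the ATPase Mi-2alpha, had 7977 counts in the Dox library and 5193 in the untreated library. That is 487 CPM with Dox against 304 CPM without, a log2 fold of 0.68 (interval 0.63 to 0.73), or 0.54 and so below 1.5-fold with the length trend removed. Chd4, which encodes the closely related Mi-2beta, the NuRD ATPase found with Ikaros in lymphocytes, had the highest CPM of the NuRD genes in the Dox library. It had 13077 counts with Dox and 12037 untreated, a log2 fold of 0.18. Chd4 is 6438 bases long and Chd3 6168 bases, and the fold of Chd4 with the length trend removed is not given here. Chd3 therefore differed more than Chd4 although both were abundant. Hdac2 (Entrez 15182), a class I histone deacetylase, had 2602 counts with Dox and 4753 untreated. Its level was 159 CPM in the Dox library and 278 CPM in the untreated library, 1.75-fold lower (interval 1.67 to 1.84). Its paralog Hdac1, which can stand in the same place in the complex, had 1355 counts with Dox and 1438 untreated, a log2 fold of -0.03 whose interval (-0.13 to 0.08) holds 0. Reads of Hdac1 may be shared with an annotated pseudogene, Hdac1-ps.

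The scaffold and binding subunits of NuRD were also split. Mta1, Mta2 and Mta3 encode alternative scaffold proteins that hold the deacetylases. Mta1 had 1332 counts in the Dox library and 2274 in the untreated library, 1.64-fold lower with Dox (interval 1.53 to 1.75). Mta2 had 9719 counts with Dox and 9439 untreated and Mta3 1244 counts with Dox and 1170 untreated, with log2 folds of 0.10 and 0.15. Per length, Mta2 was the most abundant of all the members in the Dox library, at 192 RPKM with Dox and 179 RPKM untreated. Mbd2 and Mbd3 encode mutually exclusive subunits, of which Mbd2 binds methylated CpG and Mbd3 largely does not. Mbd3 had 1612 counts with Dox and 3073 untreated, 1.83-fold lower (interval 1.72 to 1.94), and Mbd2 had 2646 counts with Dox and 2064 untreated, 1.34-fold higher (interval 1.26 to 1.42). Mbd2 was the more abundant of the pair with Dox and Mbd3 without, with Mbd2 at 87.3 RPKM and Mbd3 at 61.9 RPKM in the Dox library, and Mbd2 at 65.4 RPKM and Mbd3 at 113 RPKM in the untreated library.

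Rbbp4 and Rbbp7 encode histone-binding proteins that NuRD shares with the Sin3 complex and PRC2. Rbbp7 (Entrez 245688, chrX:162760372-162779090) had 3951 counts with Dox and 7618 untreated. It stood at 241 CPM in the Dox library and 446 CPM in the untreated library, 1.85-fold lower (interval 1.78 to 1.92), the largest difference among the NuRD members. Rbbp4 had 10223 counts with Dox and 13864 untreated, a log2 fold of -0.38. Of the exonic bases of Rbbp4, 82.0% are free of exons of other genes. The remainder, as with 12.7% of Smarcd1, 7.60% of Kdm2b, 6.93% of Mtf2, 6.82% of Eed and 5.98% of Rbbp7, is overlapped from the other strand, and reads of such stretches cannot be told apart because the strand setting of the counting is unknown. The zinc finger subunits that link the remodelling and deacetylase parts of NuRD had log2 folds above 0, Gatad2b with 568 counts in the Dox and 430 in the untreated library (0.46) and Gatad2a with 1876 counts with Dox and 1798 untreated (0.12). That of Gatad2a was -0.0088 with the length trend removed.

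Among the Sin3 and CtBP genes, 1 member stood apart. Sap30 (Entrez 60406, chr8:57482702-57487860), a subunit that stabilises the Sin3 deacetylase complex, had 190 counts in the Dox library and 519 in the untreated library. It stood at 11.6 CPM with Dox and 30.4 CPM untreated, 2.62-fold lower (interval 2.22 to 3.11). The scaffold genes Sin3a and Sin3b lay near each other and near 0, with 2543 counts with Dox and 3069 untreated for Sin3a (log2 fold -0.21) and 2270 counts with Dox and 2156 untreated for Sin3b (0.13). The corepressor gene Ctbp1, a partner of Ikaros that works without a deacetylase of its own, was the most abundant of these genes. It had 4875 counts with Dox and 4291 untreated, a log2 fold of 0.24. Its paralog Ctbp2 was the 1 member below 1 CPM, with 12 counts in the Dox library and 2 in the untreated library (ratio 6.25, interval 1.39 to 57.5). The CtBP message of these cells was thus almost wholly Ctbp1, with Ctbp2 at 0.128% of the pair per length with Dox and 0.0242% untreated.

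**Figure D2:**
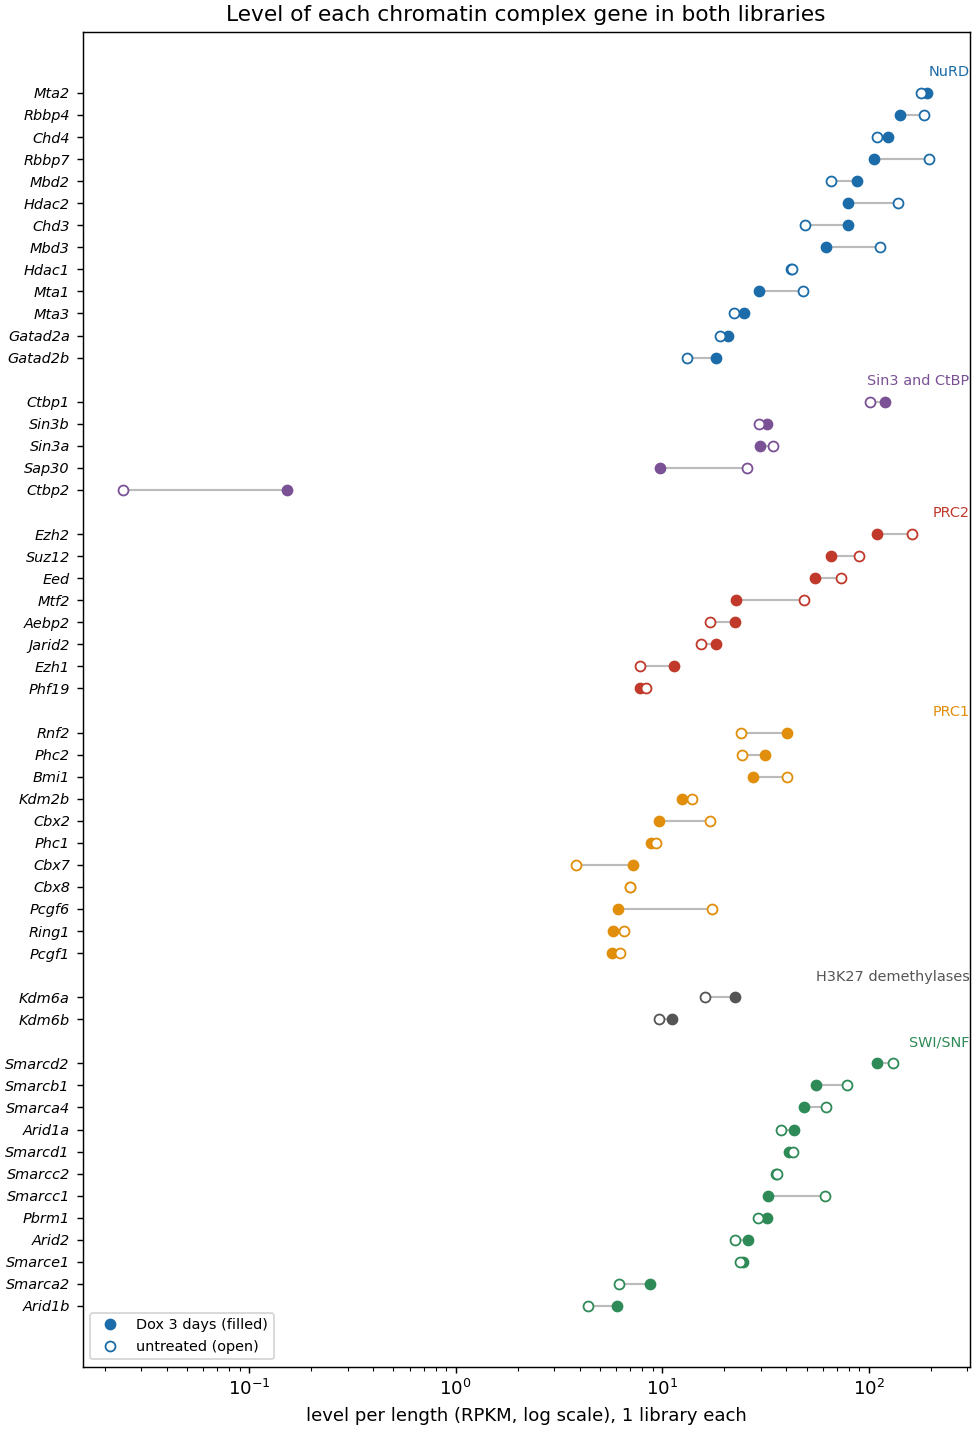
Level of each of the 51 members in RPKM, a level per length, on a log axis, by complex (vertical axis: gene). Filled points are the Dox library and open points the untreated library, 1 library each; Mta2 has the highest Dox level (192 RPKM), and Ctbp2 lies far below all other members.

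In PRC2 the 3 core genes other than Ezh1 were lower with Dox by similar amounts. Ezh2 (Entrez 14056, chr6:47530274-47595270), which encodes the main H3K27 methyltransferase, had 4818 counts in the Dox library and 7388 in the untreated library, 1.47-fold lower (interval 1.42 to 1.53). Suz12, which encodes the scaffold of the complex, had 4705 counts with Dox and 6707 untreated, 1.37-fold lower (interval 1.32 to 1.42). Eed, which encodes the subunit that reads the methyl mark, had 1844 counts with Dox and 2592 untreated, 1.35-fold lower (interval 1.27 to 1.43). None of the 3 reached 1.5-fold. Ezh1 encodes the second methyltransferase, which is less active and is known from resting cells. It had 786 counts with Dox and 559 untreated, 1.47-fold higher (interval 1.31 to 1.64). Ezh2 was the more abundant in both libraries, at 110.3 RPKM against 11.4 RPKM for Ezh1 in the Dox library, and at 162 RPKM against 7.81 RPKM in the untreated library.

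Of the accessory PRC2 genes, Mtf2 (Entrez 17765, chr5:108065660-108109219) was at least 2-fold lower. It encodes a Polycomb-like protein that brings PRC2 to CpG islands. Its counts were 1961 in the Dox library and 4326 in the untreated library, or 119.7 CPM with Dox and 253 CPM untreated, 2.12-fold lower (interval 2.01 to 2.23). Phf19, another Polycomb-like gene, had 477 counts with Dox and 533 untreated, with an interval of its log2 fold from -0.28 to 0.08. Jarid2 and Aebp2 encode cofactors of an alternative form of PRC2, named PRC2.2, while the Polycomb-like proteins mark PRC2.1. Aebp2 had 2431 counts with Dox and 1921 untreated (log2 fold 0.40) and Jarid2 1843 counts with Dox and 1625 untreated (0.24). The PRC2.1 genes Phf1 and Epop, which are not members, lay on opposite sides of 0. Phf1, a Polycomb-like gene, had 301 counts with Dox and 93 untreated, 3.37-fold higher (interval 2.67 to 4.30). Epop had 132 counts with Dox and 400 untreated, a log2 fold of -1.53. The grouping into PRC2.1, PRC2.2 and the other assemblies below was made after the values were seen.

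Promoter windows of the members were searched for short motifs, and the stretches printed are those in which an E2F octamer was found. RefSeq promoter windows of build GRCm38.p6, from 250 bases before to 50 bases after the start, were at hand for 42 of the 51 members (57 windows). The E2F octamers TTTCCCGC, TTTGGCGC, TTTCGCGC and TTTGCCGC, searched on both strands, occurred in windows of 5 members, Ezh2, Suz12, Phf19, Arid1a and Smarcd1. That is 8.77% of the member windows, against 2.26% of all 32851 windows, and the difference was not tested. Here and for the motifs below, the set of all windows was not limited to genes with at least 1 CPM, so it is unlike the members in level. The octamer is in capitals in the 30 bases printed for each, 5′ to 3′ on the strand of the gene.
Ezh2, chr6:47595009-47595038, minus strand: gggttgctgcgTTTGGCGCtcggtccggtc
Suz12, chr11:79992876-79992905, plus strand: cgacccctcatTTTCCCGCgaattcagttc
Phf19, chr2:34914166-34914195, minus strand: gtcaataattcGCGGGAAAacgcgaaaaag
Arid1a, chr4:133754022-133754051, minus strand: tccctccctccTTTCCCGCcccctccccct
Smarcd1, chr15:99702145-99702174, plus strand: gtcagcacgccTTTCCCGCtagtcgccccc
Of these 5 genes, Ezh2 and Suz12 were lower with Dox, Arid1a had a log2 fold of 0.20, and the intervals of Phf19 and Smarcd1 hold 0. Eed, which was lower by about as much as Suz12, has none of these letters in its window. The octamer of Phf19 reads on the other strand. The windows of Ezh2, Phf19 and Arid1a are at starts inside the annotated genes, whose 5′ ends are at chr6:47595270, chr2:34914353 and chr4:133756769.

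PRC1 held both the highest and the lowest log2 fold of all measured members. The ubiquitin ligase itself is formed by Ring1 or Rnf2. Rnf2 (Entrez 19821, chr1:151469398-151500991), which encodes RING1B, had 1995 counts in the Dox library and 1244 in the untreated library, or 122 CPM with Dox and 72.9 CPM untreated. It was 1.67-fold higher with Dox, a log2 fold of 0.74 (interval 0.64 to 0.84). Ring1, which encodes RING1A, had 192 counts with Dox and 227 untreated, with an interval of its log2 fold from -0.47 to 0.10. Rnf2 was the more abundant of the pair in both libraries and the most abundant of the PRC1 members per length in the Dox library.

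The Cbx subunits of canonical PRC1, which read the PRC2 mark, lay on both sides of 0. Cbx7 (Entrez 52609, chr15:79915804-79971143) had 341 counts in the Dox library and 189 in the untreated library, 1.88-fold higher with Dox (interval 1.57 to 2.26). Cbx2 had 593 counts with Dox and 1092 untreated, 1.77-fold lower (log2 fold -0.82, interval -0.97 to -0.68). Cbx8 had 160 counts with Dox and 167 untreated, a ratio of 0.999 (interval 0.799 to 1.25). Over these 3 genes, Cbx7 made up 30.1% of the message per length in the Dox library and 13.7% in the untreated library, while Cbx2 made up 40.5% with Dox and 61.2% untreated. Bmi1, a ring finger partner of the ligase known for stem cell renewal, had 1627 counts with Dox and 2459 untreated (log2 fold -0.54). Among the Polyhomeotic genes, which let PRC1 cluster, Phc2 had 2255 counts with Dox and 1815 untreated (0.37) and Phc1 had 554 counts with Dox and 613 untreated (-0.09). Phc3, which is not a member and is 11066 bases long, had 1103 counts with Dox and 593 untreated (0.95).

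Of the members that belong to variant PRC1 but not to canonical PRC1, Pcgf6 (Entrez 71041, chr19:47033617-47050939), the ring finger subunit of PRC1.6, had 210 counts in the Dox library and 627 in the untreated library. Its level was 12.8 CPM with Dox and 36.7 CPM untreated, 2.86-fold lower (interval 2.45 to 3.37), the largest difference among the measured members. The PRC1.6 genes E2f6, L3mbtl2 and Mga, which are not members, had log2 folds of -0.90, -0.47 and -0.42. Of the subunits that PRC1.6 shares with other variant forms, Rnf2 was at 0.74 and Yaf2 at 0.35, and Rybp (0.16) and Ring1 (-0.18) had intervals that hold 0. Of the PRC1.1 genes, Kdm2b, which brings this form to CpG islands, had 1108 counts with Dox and 1289 untreated (-0.16), and Pcgf1 had 82 counts with Dox and 93 untreated, with an interval from -0.57 to 0.32. Bcor and Bcorl1, which are not members, had log2 folds of -0.60 and -0.31.

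The 250 bases before the start of Pcgf6, the member with the lowest log2 fold, are given here as an example of a promoter with the hexamer TGGGAA, letters that belong to the core bound both by Ikaros and by the Notch factor RBPJ. Read on both strands, the hexamer occurred in 9 of the 57 member windows (15.8%), 2 of them of Aebp2, and in 25.6% of all windows, and the difference was not tested. Its reverse complement is in capitals.
Pcgf6, chr19:47050907-47051156, minus strand: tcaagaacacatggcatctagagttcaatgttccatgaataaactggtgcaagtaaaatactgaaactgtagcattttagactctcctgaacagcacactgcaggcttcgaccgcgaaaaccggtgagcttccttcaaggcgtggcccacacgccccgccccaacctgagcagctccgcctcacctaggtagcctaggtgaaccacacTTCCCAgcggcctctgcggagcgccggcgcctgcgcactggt
The same hexamer stood in windows of Aebp2, Bmi1, Ctbp2, Gatad2a, Jarid2, Phc1 and Rbbp7, genes whose log2 folds lay on both sides of 0. The E-box CACGTG, the core site of Myc and its partners, occurred in 10.5% of the member windows and 7.15% of all windows.

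Both genes that remove the PRC2 mark were higher with Dox, though by less than 1.5-fold. Their median log2 fold was smaller with the gene length trend removed, and the single values under that alternative are not given here. Kdm6a, which encodes the demethylase UTX, had 1938 counts in the Dox library and 1442 in the untreated library, a log2 fold of 0.49 (interval 0.39 to 0.59). Kdm6b, which encodes JMJD3, had 1217 counts with Dox and 1103 untreated, 1.15-fold higher (interval 1.06 to 1.25). The ratio of Kdm6a to Ezh2 counts, demethylase over methyltransferase, was 2.06 times as high in the Dox library as in the untreated library (interval 1.91 to 2.23). Kdm6a is 5265 bases long and Ezh2 2667 bases, and the ratio is given without removal of the length trend. UTX works in a complex with the H3K4 methyltransferases encoded by Kmt2c and Kmt2d, which are not members. Kmt2c had 2162 counts with Dox and 1055 untreated, 2.14-fold higher, and Kmt2d had 2198 counts with Dox and 1078 untreated, 2.13-fold higher. These 2 genes are 16820 and 19827 bases long, against a median of 2716 bases for all genes tested. Their folds with the length trend removed are not given here. Other genes of that complex were nearer 0, with Ncoa6 at a log2 fold of 0.15, Pagr1a at -0.16 and Paxip1 at -0.42.

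**Figure D3:**
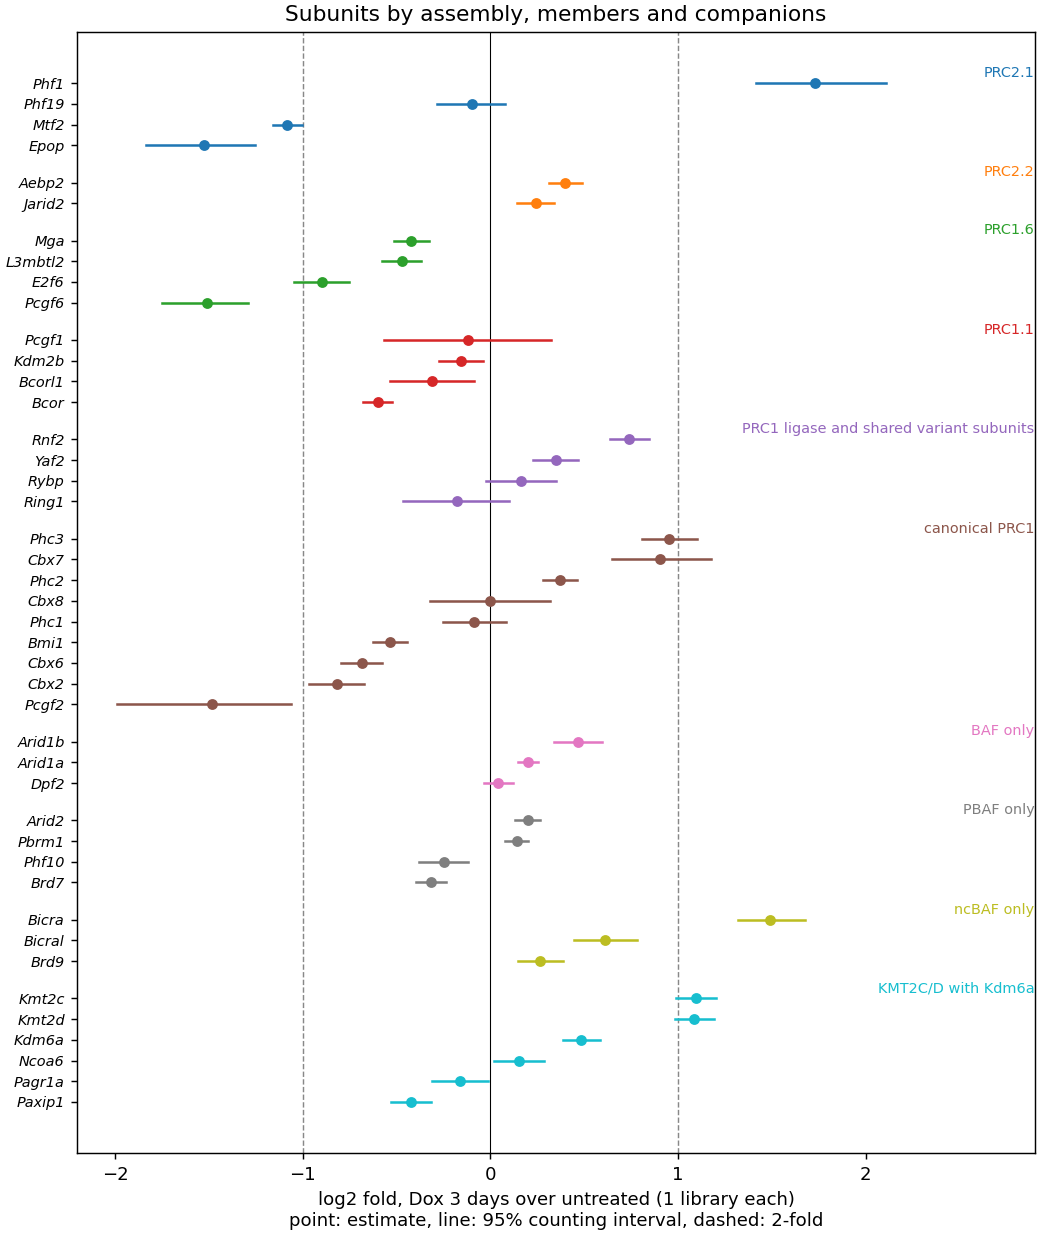
Log2 fold of subunits by assembly, Dox 3 days over untreated, for members and companion genes (vertical axis: gene; horizontal axis: log2 fold). Points are estimates from 1 library each and lines 95% counting intervals; the estimates of the genes listed under PRC1.6 and PRC1.1 alone lie below 0, while Rnf2 and Yaf2, which these forms share, lie above it, and PRC2.1 spreads from Epop at -1.53 to Phf1 at 1.73.

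In SWI/SNF 1 of 12 members was beyond 1.5-fold, where 47.7% of all genes were. Smarcc1 (Entrez 20588, chr9:110132024-110240178), which encodes the core scaffold BAF155, had 3009 counts in the Dox library and 5935 in the untreated library. It stood at 184 CPM with Dox and 348 CPM untreated, 1.89-fold lower (interval 1.81 to 1.98). Its paralog Smarcc2, which encodes BAF170, had 2942 counts with Dox and 3086 untreated, and its interval holds 0. Smarcd2, the most abundant SWI/SNF member per length, was at 109 RPKM with Dox and 131 RPKM untreated (log2 fold -0.26). Smarcb1, another core subunit and a known tumour suppressor, had 1510 counts with Dox and 2210 untreated (-0.49), while Smarcd1 and Smarce1 lay at -0.06 and 0.05 with intervals that hold 0. A pseudogene of Smarce1 is annotated and may share its reads.

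The ATPases of SWI/SNF differed in opposite directions. Smarca4, which encodes BRG1, the main ATPase in lymphocytes, had 5074 counts in the Dox library and 6749 in the untreated library, 1.28-fold lower (interval 1.23 to 1.32). Smarca2, which encodes BRM, had 867 counts with Dox and 640 untreated, 1.41-fold higher (interval 1.27 to 1.57). The 4 members that set a subtype of the complex had log2 folds above 0, but with the length trend removed 3 of them lay below it, Arid1a at -0.017, Arid2 at -0.056 and Pbrm1 at -0.077, and Arid1b was at 0.12. Arid1a and Arid1b, which define BAF, had log2 folds of 0.20 and 0.47, and Arid2 and Pbrm1, which define PBAF, 0.20 and 0.14. Of these, Arid1a had the most reads, 5818 with Dox and 5271 untreated. The PBAF genes Phf10 and Brd7, which are not members, lay at -0.25 and -0.31. The ncBAF genes Bicra, Bicral and Brd9, none of them members, lay at 1.49, 0.61 and 0.27.

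The share of each gene within paralog pairs was compared between the libraries. A ratio of counts of 2 genes within a library needs no scaling between libraries, so it was compared as an odds ratio. A trend with gene length does not cancel where the 2 genes differ in length. It was not removed from the odds ratios given here. The pair of Ctbp1 and Ctbp2 was set aside because Ctbp2 had so few counts; its odds ratio, Ctbp2 over Ctbp1, was 5.28 (interval 1.17 to 48.6). Of the other 23 paralog pairs among the members, some of which share a gene, 13 had an odds ratio beyond 1.5 in either direction and 3 beyond 2, and the counting interval held 1 for 2 pairs. The same share was not computed for pairs of other genes, of which 47.7% singly differed by 1.5-fold, so the count describes these pairs only. The pair of Cbx7 and Cbx2 had the largest odds ratio of the 23: per length Cbx7 made up 42.6% of the pair in the Dox library and 18.3% in the untreated library (odds ratio 3.32, interval 2.70 to 4.10). All shares per length rest on the deposited gene lengths. By raw counts, Cbx7 had 36.5% of this pair with Dox and 14.8% untreated. Mbd2 made up 58.5% of its pair with Mbd3 in the Dox library and 36.6% in the untreated library (odds ratio 2.44, interval 2.25 to 2.66). Ezh1 made up 9.40% of the Ezh pair with Dox and 4.59% untreated (odds ratio 2.16, interval 1.92 to 2.42). In each of these 3 pairs 1 gene was higher and the other lower with Dox.

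The remaining 20 of these pairs had odds ratios below 2. The share of Phf19 against Mtf2 was 25.4% with Dox and 14.7% untreated (odds ratio 1.97, interval 1.72 to 2.26). Rnf2 made up 87.5% of its pair with Ring1 in the Dox library and 78.6% in the untreated library (odds ratio 1.90, interval 1.54 to 2.34). Smarcc2 was 52.5% of its pair with Smarcc1 with Dox and 37.0% untreated. Per length, the more abundant of the BAF155 and BAF170 genes was thus a different one in each library. This rests on the gene lengths, as Smarcc2 had 49.4% of the raw counts of the pair with Dox and 34.2% untreated. Smarca2 made up 15.2% of the ATPase pair with Dox and 9.04% untreated, and the BRG1 gene was the main form in both. Hdac1 was 34.6% of its pair with Hdac2 with Dox and 23.5% untreated. Among the Mta genes, Mta1 made up 11.9% of the 3 with Dox and 19.2% untreated, while the sum of the 3 was 246 RPKM with Dox and 249.5 RPKM untreated. Pairs that differed little included Arid1b and Arid1a, with Arid1b at 12.2% with Dox and 10.4% untreated. The same held for Smarcd2 and Smarcd1 (odds ratio 0.871) and for Mta3 and Mta2, whose odds ratio of 1.03 had an interval from 0.948 to 1.12.

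**Figure D4:**
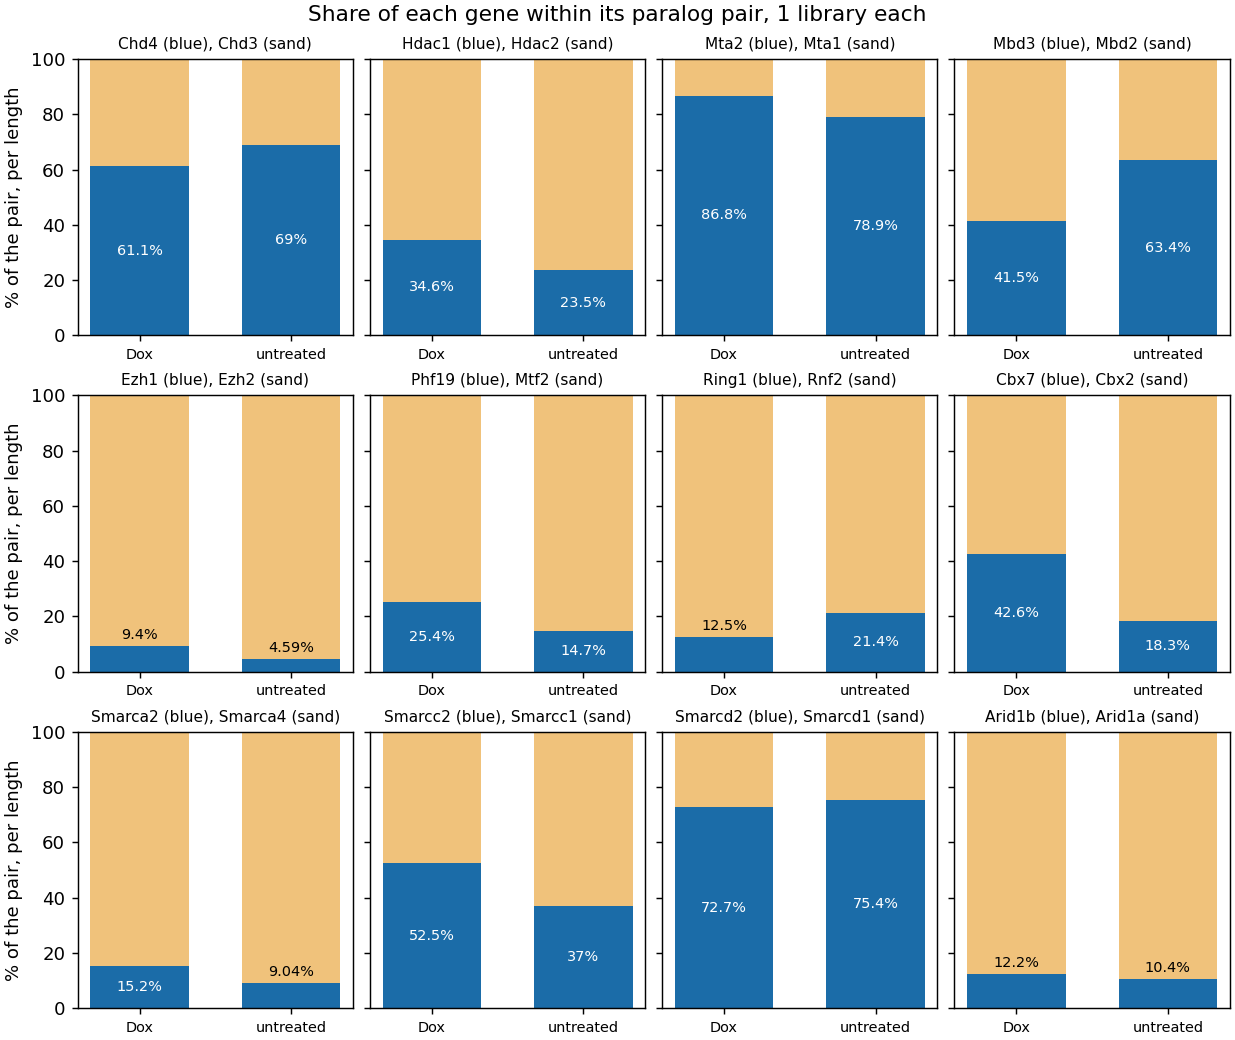
Share of each gene within 12 paralog pairs, in percent of the pair's level per length, with the Dox library left of the untreated library (1 library each). The share of Cbx7 is 42.6% with Dox and 18.3% untreated, and that of Mbd3 41.5% with Dox and 63.4% untreated, while that of Arid1b is 12.2% with Dox and 10.4% untreated.

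Other subunits and remodellers were taken from lists drawn up by function. Of 102 measured companion genes, 8 were at least 2-fold higher with Dox (13.6% of all genes were) and 8 were 2-fold lower or more (13.0% of all genes were). Their median log2 fold was 0.08. Cdk2ap1, a small NuRD subunit, had 757 counts with Dox and 2121 untreated (log2 fold -1.42), while its paralog Cdk2ap2 had 2520 counts with Dox and 1436 untreated (0.87). Hells, a remodeller needed for DNA methylation, had 1746 counts with Dox and 5298 untreated (-1.54). Ruvbl2 (-1.49) and Ruvbl1 (-1.36) encode the paired ATPases of INO80. Chd7 and Chd2, which encode remodellers of other CHD subfamilies, had log2 folds of 1.13 and 1.06. Both are long, at 9338 and 9071 bases. Their folds and the companion counts are given without removal of the length trend. Bcl7a, a SWI/SNF subunit, had 546 counts with Dox and 1310 untreated (-1.20), Dpf1 had 6 counts with Dox and 39 untreated, and the PRC1 ring finger gene Pcgf2 had 54 counts with Dox and 161 untreated. Scmh1, a Polycomb gene, had 23 counts with Dox and 7 untreated (ratio 3.42, interval 1.42 to 9.45). Hdac9, a class II deacetylase, had 26 counts with Dox and 0 untreated. With the untreated library set to 3 counts the ratio is 9.03, while the counting interval of Hdac9 starts at 6.84-fold higher.

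The lower members stood beside large differences in the cell cycle lists. All 25 DNA replication genes lay between -1.76 and -0.74 in log2 fold, 20 of them at least 2-fold lower with Dox (13.0% of all genes were), and summed to 3993 CPM in the Dox library and 9039 CPM in the untreated library. Of 20 mitosis genes, 1 was at least 2-fold lower, against the same 13.0% of all genes, and the median was -0.56. Among the members, Ezh2, Suz12, Eed and Rbbp4 lay between -0.56 and -0.38, above the range of the replication genes. Mta1 (-0.71), Bmi1 (-0.54) and Smarcb1 (-0.49) also lay above it. Pcgf6, Sap30, Mtf2, Smarcc1, Rbbp7, Mbd3, Cbx2 and Hdac2 lay within it. The share of all genes within that range was not computed, and 24.1% of all genes were at least 1.5-fold lower. The part of the cell cycle lists in the members' differences was not tested. Of 14 loci known as Polycomb targets in other tissues, only Cdkn2a and Cdkn2b reached 1 CPM in either library. Cdkn2a, which encodes a p53 pathway activator, had 431 counts with Dox and 482 untreated, and Cdkn2b 28 counts with Dox and 14 untreated. The Hoxa genes examined (Hoxa5, Hoxa6, Hoxa7, Hoxa9 and Hoxa10) had at most 4 counts in the Dox library and at most 1 in the untreated library.

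**Figure D5:**
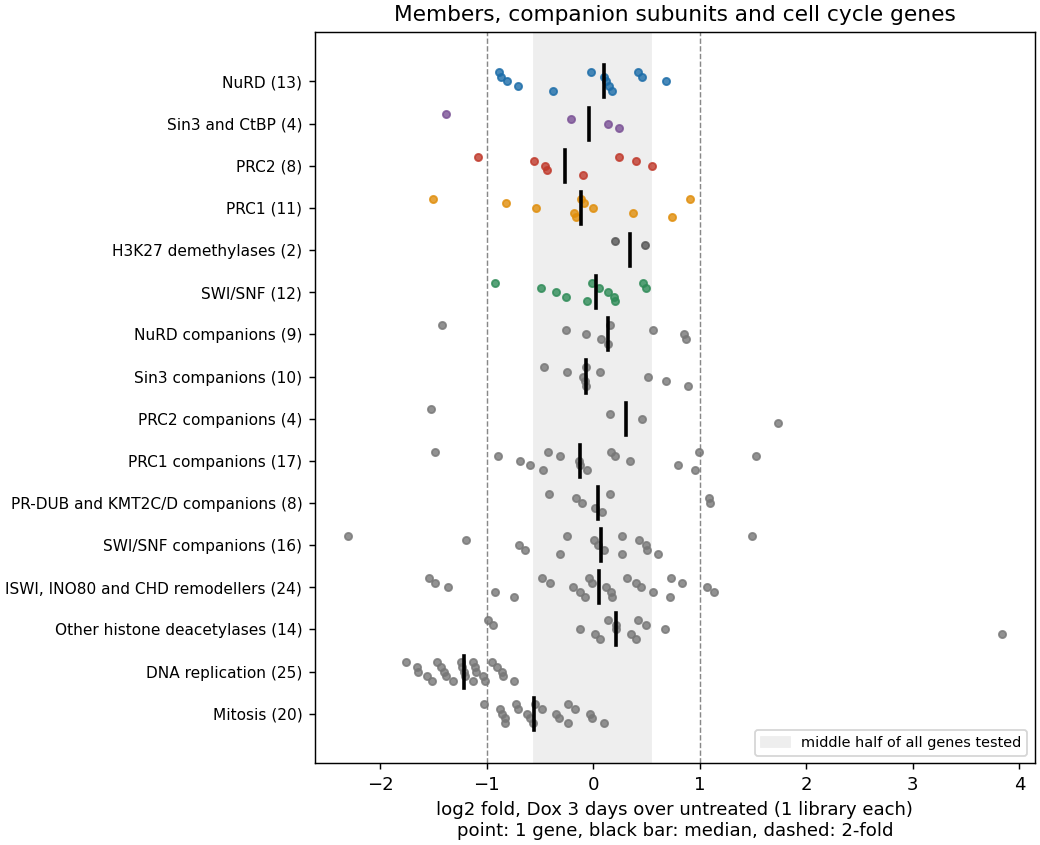
Log2 fold, Dox 3 days over untreated, of each measured gene in the 6 groups of members (coloured) and in companion and cell cycle lists (grey), with list sizes in brackets. Black bars are medians, dashed lines 2-fold, and the grey band the interquartile range of all genes tested; DNA replication genes lie below the band (median -1.22), while the medians of all 6 groups of members lie within it.

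By level per length, the members were abundant genes. Their median was 29.5 RPKM in the Dox library and 29.2 RPKM in the untreated library for the 50 measured, against 11.7 RPKM in the Dox library and 11.9 RPKM in the untreated library for all genes tested. In the Dox library 37 of the 51 stood above the median of all genes, and in the untreated library 40. The highest in the Dox library after Mta2 were Rbbp4 at 142 RPKM, Chd4 at 124 RPKM and Ctbp1 at 119.9 RPKM. In the untreated library the order was Rbbp7 at 196 RPKM, Rbbp4 at 184 RPKM, Mta2 at 179 RPKM and Ezh2 at 162 RPKM. Of NuRD, PRC2, PRC1 and SWI/SNF, PRC1 had the lowest peak level, with Rnf2 at 40.2 RPKM in the Dox library and Bmi1 at 40.1 RPKM in the untreated library. The SWI/SNF ATPase BRG1 gene stood at 48.6 RPKM with Dox and 62.0 RPKM untreated, below the NuRD ATPase Chd4 in both.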

How the data were processed

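Total RNA of FACS-sorted T-ALL cells was sequenced, 1 library of the Dox group and 1 of the untreated group. The authors deposited raw read counts per gene by Entrez identifier; per the submitters' processing notes, the tools were CASAVA 1.8.2 and featureCounts, without a version, and the build was mm10. What aligner, annotation, strand setting and rule for multiple alignments they chose is not stated in the labels. The deposited gene length column, an annotation, was used for levels per length. The table of the whole series matched the separate sample tables (0 of 27179 values differed), and 0 columns were left without a sample. RefSeq symbols of GRCm38.p6 were matched to 25275 genes; genes without a symbol stayed in the totals, at 0.977% of Dox and 1.20% of untreated counts.

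Counts were scaled with TMM factors (0.994 Dox, 1.01 untreated) in edgeR 4.0.16 (R 4.3.3). The log2 folds run Dox over untreated, from log2 CPM with a prior count of 2; ratios, CPM and RPKM carry none. A gene was tested when either library reached 1 CPM (12125 genes). With 1 library per condition no test was possible. Ratios have exact Clopper-Pearson 95% intervals from the conditional binomial distribution, and odds ratios exact conditional intervals, both covering counting error only; PCR copies are not independent molecules. A count of 0 is read against a floor of 3 counts, 0.183 CPM in the Dox and 0.176 CPM in the untreated library. Named genes are Ikzf1, all members (in full where at least 1.5-fold different or most abundant in their complex) and up to 4 genes of each other list with the largest difference of at least 2-fold; further companions were named after their values were seen. Members, lists and alternatives were chosen with earlier results of these data known. Exon overlaps come from GENCODE M21. The alternatives tried were scaling by upper quartile, by total or by DESeq2 1.42.0 size factors; prior counts 0.5 and 5; a filter at 1 count or 5 CPM; the deeper library thinned to the other; totals without 158 mitochondrial, ribosomal protein and haemoglobin genes or without 63 markers of other cell types, and removal of a lowess trend with gene length. The interval in place of the estimate, and other assignments of shared subunits, were also tried. The steps were tested on simulated counts. Python 3.11.15, numpy 2.4.6, pandas 2.3.3, scipy 1.17.1, statsmodels 0.14.6 and matplotlib 3.10.9 were used.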

Additional observations from a re-analysis of the deposited data

How the results depend on the processing

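The 12 members at least 1.5-fold different kept their sign under every alternative run, and the number of members at least 2-fold lower, or at least 1.5-fold higher or lower, stayed within 1.5 times its value. With a filter of at least 1 count, Ctbp2 enters and the count of members at least 2-fold higher becomes 1 (from 12 and 2 counts), while the Sin3 and CtBP median becomes 0.13. With the gene length trend removed, the Sin3 and CtBP median was -0.15, the demethylase median 0.20 and the SWI/SNF median -0.079, Chd3 had 0.54 and Smarcc1 -1.05. Without the subunits shared with other complexes the NuRD median was 0.15, and with Rbbp4 and Rbbp7 counted in it the PRC2 median was -0.41. With the deeper library thinned, the odds ratios of the paralog pairs moved by less than their counting intervals. No paired analysis was possible because each condition has 1 library. Depth limits Ctbp2, Pcgf1, Dpf1, Scmh1 and Hdac9, each with under 100 counts in both libraries. Variation between mice was not measured.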
